A study of Gallus gallus with 4 samples.

Results

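Small RNA reads that fall in annotated genes can be breakdown products of longer RNAs or trimmed small RNAs, and this account is about the genes whose reads were seen in untreated small RNA and not at all after periodate oxidation. Of 23216 rows in the deposited table of other genes (genes outside the miRNA, tRNA, rRNA and repeat tables), 300 had 30 or more reads in both untreated libraries. Of these 300 rows, 99 had 0 reads in both oxidized libraries, and these 99 gene rows were chosen by those counts. The other 201 had at least 1 read after oxidation.

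The RNA came from wild-type chick embryos (Gallus gallus), namely from the cranial midbrain at stage 9 minus of Hamburger and Hamilton (HH9-), reached after 30 h of incubation at 37 °C. It was gel-selected between 19 and 38 nucleotides. The design gives 2 oxidized libraries, treated with sodium periodate, and 2 libraries made without oxidation, called total here. Depth, the reads assigned to any feature, was 10981001 and 14081954 in oxidized replicates 1 and 2, against 17962725 and 14946049 in total replicates 1 and 2. Whether the replicates are separate pools of embryos is not stated in the labels, and any p-value measures only the spread between these libraries, which may be technical.

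As background, periodate attacks the free ribose at the 3′ end of an RNA, and an attacked end can no longer be joined to a sequencing adaptor. PIWI-interacting RNAs (piRNAs) carry a methyl group on that last ribose and pass, while most animal miRNAs and most fragments of messenger and structural RNA have an open end and are lost. A gene row with no oxidized read can therefore hold a lost RNA or simply a rare RNA that was not sampled. The values below bear on how far these can be told apart. Whether the reads are fragments of longer RNAs was not examined. The rows are listed by Ensembl ID alone. The RefSeq table used here gives an Ensembl ID for 0 of its 25635 genes, so the 99 IDs could not be looked up in it. No gene is therefore named, no role is given and no sequence is shown.

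The 99 rows stood at a low level in total small RNA. Together they held 0 reads in each oxidized library, against 8230 and 6862 reads in the total libraries. That was 0.0458% and 0.0459% of all assigned reads in total replicates 1 and 2, and 1.15% and 0.895% of the reads on other genes. A row had from 30 to 430 reads in total replicate 1, with a median of 60, and from 30 to 367 in total replicate 2, with a median of 48. In counts per 1000000 assigned reads (CPM) the mean of both total libraries ran from 1.89 to 24.2, with a median of 3.33. The files give no gene lengths, so these are levels of reads and not of molecules per length. For comparison, the 201 rows with oxidized reads ran from 1.93 to 24760 CPM with a median of 14.9, and 82 of them lay above the highest of the 99. Only 14 of the 99 rows were above the median of the 300 rows, 6.48 CPM. The rows were chosen by their counts, so this difference in level is a description and was not tested.

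**Figure D1:**
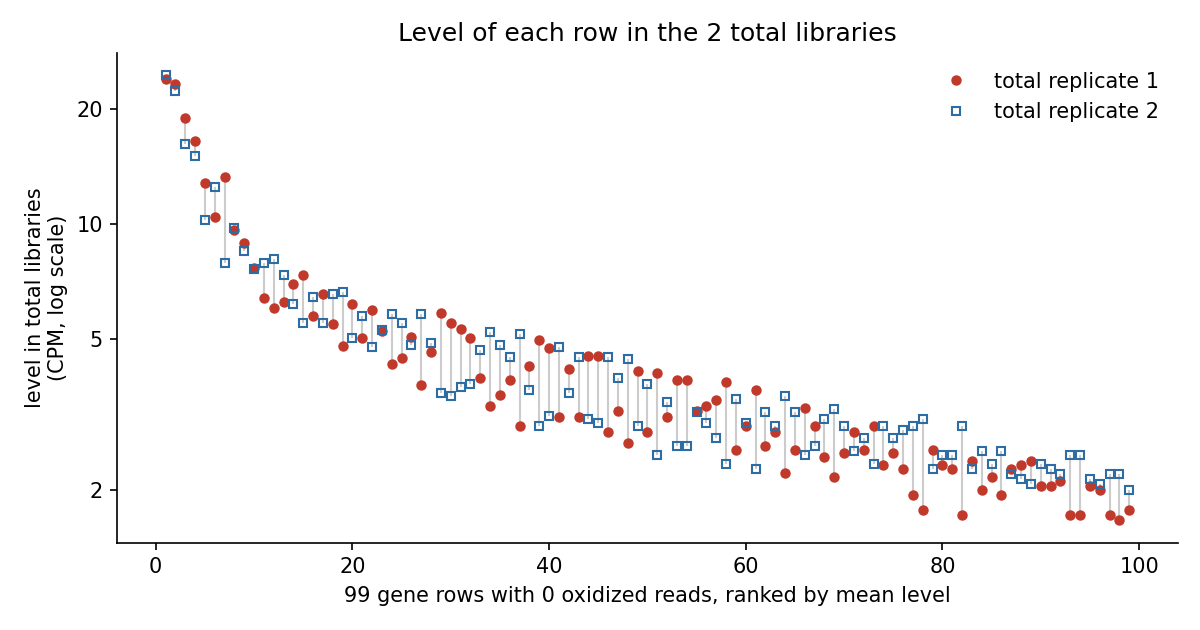
Level of the 99 gene rows with 0 oxidized reads in total replicate 1 (filled circles) and total replicate 2 (open squares), in CPM on a log scale, ranked by the mean of both; grey lines join the values of a row. The levels run from 24.2 CPM for the row ranked 1 to 1.89 CPM for the row ranked 99.

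Few rows stood out from this low range. The row ranked 1, ENSGALG00000054063, had 0 reads in each oxidized library, against 430 and 367 reads in the total libraries (24.2 ± 0.436 CPM, mean ± SD, n = 2). The row ranked 2 had 0 reads in each oxidized library, against 419 and 333 in the total libraries (22.8 ± 0.740 CPM), and the row ranked 3 had 0 in each, against 340 and 242 (17.6 ± 1.94 CPM). Ranked 4 was a row with 0 reads in each oxidized library, against 297 and 225 in the total libraries (15.8 ± 1.05 CPM). Below these 4 rows the next level was 11.5 CPM.

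The row ranked 5 had 0 reads in each oxidized library, against 230 and 153 in the total libraries (11.5 ± 1.82 CPM), and that ranked 6 had 0, against 187 and 187 (11.5 ± 1.49 CPM). In the row ranked 7 the total libraries differed most among the first 10, with 0 reads in each oxidized library, against 239 and 118 reads (10.6 ± 3.83 CPM). The row ranked 8, ENSGALG00000043373, had 0 reads in each oxidized library, against 173 and 146 (9.70 ± 0.0972 CPM), and it was the highest of the rows whose reads lay on the reverse strand. Rows ranked 9 and 10 stood at 8.70 ± 0.290 and 7.66 ± 0.0390 CPM in the total libraries. The first 10 rows held 31.7% and 29.3% of the reads on the 99 rows in total replicates 1 and 2, and 79 rows had under 100 reads in each total library.

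Rows lay close together on both sides of the limits used. With 0 oxidized reads, 17 of the 99 rows had a lower total count of 30 to 34, and another 23 rows just outside had a lower total count of 25 to 29. At the other limit, 16 of the 201 rows had 1 read as their highest oxidized count, and their reads in total replicate 1 ran from 33 to 1352 with a median of 158.5. In total replicate 2 these 16 rows ran from 45 to 1042 reads with a median of 125.

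As few as 0 to 3 oxidized reads per library were also found in 12 rows outside the choice with 21.5 to 103 CPM in the total libraries, 10 of them above the highest of the 99. These 12, picked after their values were seen, had 361 to 2061 reads in total replicate 1 and 325 to 1588 in total replicate 2. The highest by mean level had 2 and 1 oxidized reads, against 1775 and 1588 total reads. Demanding exactly 0 reads left these out, so the 99 rows are not all of the genes that were nearly absent after oxidation. With up to 19 reads allowed in each oxidized library, a limit also chosen after the data were seen, 130 of the 300 rows qualified.

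Most of the reads on the 99 rows lay on the strand of the annotated gene. The reverse-strand counts were read as antisense, since at most 0.00257% of tRNA reads and 0.0767% of miRNA reads of the total libraries fell there. Of the 99 rows, 55 had no reverse read in either total library and 72 had under 5% reverse reads in both. In 12 rows over 50% of the reads were on the reverse strand in both libraries, and 15 rows lay between. Summed over the 99 rows, 1070 of 8230 reads in total replicate 1 and 896 of 6862 in total replicate 2 were on the reverse strand, 13.0% and 13.1%. The 12 antisense rows carried 89.7% and 85.6% of these reverse reads. None of the 99 rows had a reverse read in an oxidized library (0 rows). The choice of rows with 0 unstranded reads favours that count but does not fix it. A row outside the 99 had 891 reverse against 185 unstranded reads in oxidized replicate 1. The count is left as a description.

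Antisense rows ran from 2.64 to 9.70 CPM with a median of 4.24, and were ranked from 8 to 74. The 72 sense rows ran from 1.94 to 24.2 CPM with a median of 3.43. ENSGALG00000043373 had 173 of 173 and 144 of 146 reads on the reverse strand. The row ranked 11 was antisense in full, with 115 of 115 and 118 of 118 reads, as were those ranked 29 (105 of 105 and 54 of 54), 47 (58 of 58 and 59 of 59) and 74 (42 of 42 and 44 of 44). Rows ranked 17, 24, 39 and 57 were between 92.7% and 100% reverse in each library. The row ranked 30 was 60.6% and 56.6% reverse. That ranked 45 held reads on both strands, with 45 of 81 and 25 of 45 on the reverse strand, 55.6% in each library. Its neighbour in rank, 46, was 58.8% reverse in total replicate 1 and 77.6% in total replicate 2.

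The strand of a row was alike in both total libraries for most rows. The difference in the reverse share between the total libraries was over 10 percentage points in 6 of 99 rows and at most 34.4 points. That largest difference belonged to the row ranked 62, with 23 of 47 reads and 40 of 48 reads on the reverse strand. The lowest row, ranked 99, had 9 of 32 and 14 of 30.

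The strand of the 99 rows can be set beside that of rows in the same range of levels. Of the 201 rows with oxidized reads, 119 had a mean level no higher than the highest of the 99. The median level was 3.33 CPM in the 99 rows and 5.64 CPM in these 119. The summed reverse share in the total libraries was 13.0% and 13.1% for the 99, against 13.6% and 12.8% for the 119. The share of the 119 rests in part on 1 row with more reverse than unstranded reads. It held 630 of 2189 reverse reads in total replicate 1 and 538 of 1991 in total replicate 2, against 58 and 42 unstranded reads. Without that row the share of the 119 would be lower, so the nearness of these shares depends on it. In all, 2 of the 119 rows, both classed as antisense, had more reverse than unstranded reads in a total library, against 0 of the 99. By row, 12 of the 99 (12.1%) were antisense, against 8 of the 119 (6.72%), and 72 (72.7%) were sense, against 94 (79.0%). Within this range 12 of the 20 antisense rows and 72 of the 166 sense rows had 0 oxidized reads. No test of these differences was run. Over all 201 rows the summed share was only 1.07% and 0.830%, and there 1 row with at most 3 reverse reads in a total library held 382992 and 421459 reads.

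**Figure D2:**
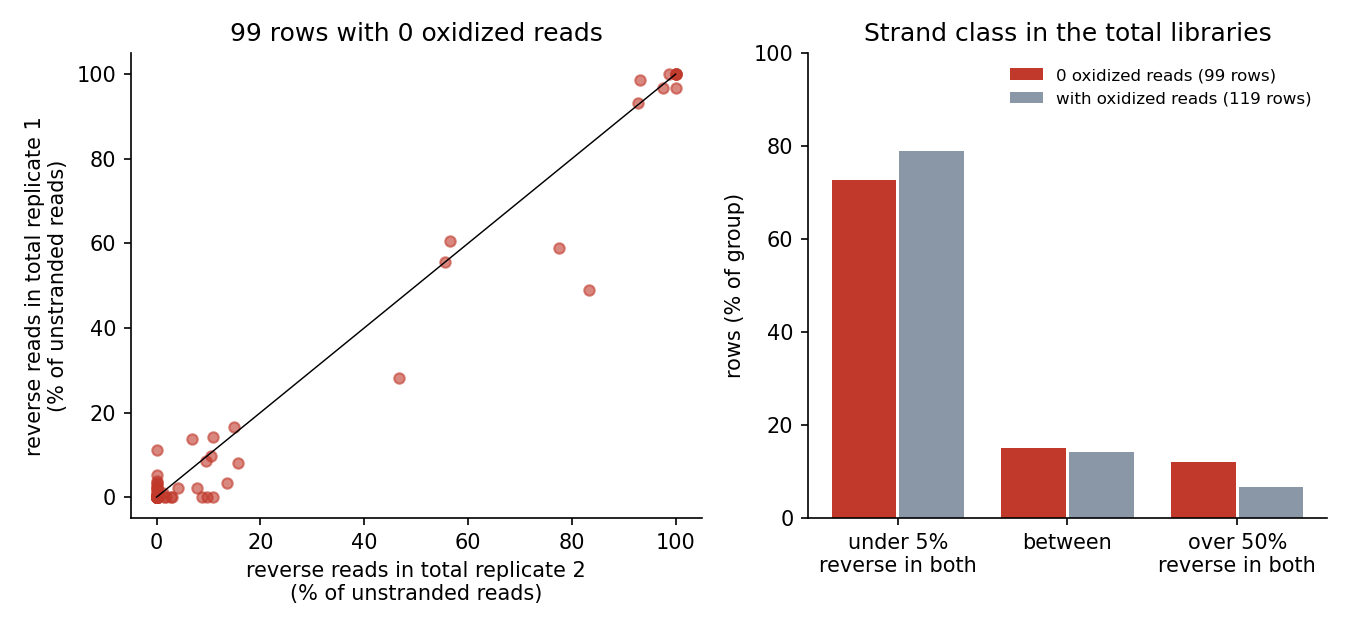
Left, the share of reads on the reverse strand in total replicate 1 against total replicate 2, in percent, for each of the 99 rows; right, the percent of rows in 3 strand classes for the 99 rows with 0 oxidized reads and the 119 rows within their range of levels with oxidized reads. Most points sit at or near 0 or 100% in both libraries, and the antisense class holds 12.1% of the 99 rows and 6.72% of the 119.

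The total libraries agreed on the levels of the 99 rows to within 2-fold, among rows chosen for 30 or more reads in both. That limit narrows how far a row near it can differ, and the rows compared below share it. Another 48 rows with 0 oxidized reads reached 30 reads in only 1 total library and are left out here. The log2 ratio of CPM, total replicate 1 over total replicate 2, ran from -0.80 to 0.75 with a median of -0.08 and an SD of 0.40. No row was past 2-fold (0 of 99), where 1.99% of the 752 rows of all tables with 30 or more reads in both total libraries were. Past 1.5-fold were 19 of 99, against 15.0% of the 752 rows. Of the 119 rows with oxidized reads in the same range of levels, 25 were past 1.5-fold and 3 past 2-fold. The row ranked 37 lay lowest, with 53 and 77 reads, and the row ranked 7 lay highest, with 239 and 118. In 41 rows total replicate 1 was the higher and in 58 total replicate 2. In the 119 rows the split was 30 and 89, with a median log2 ratio of -0.28. With miRNA reads taken out of the depth all ratios shift by 0.38. That turns the split of the 99 rows to 78 and 21 and puts 7 of them past 2-fold.

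The spread between the total libraries can be set beside the error of counting reads, although these are separate libraries and PCR copies are not independent molecules. The SD of a log2 ratio from counting alone had a median of 0.28 over the 99 rows. Of these rows, 27 lay more than 2 such SDs from equal CPM, and no such count is given for the 119. The chi-square per row around equal CPM was 2.50 in the 99 and 5.89 in the 119. The 119 have more reads on the whole, and their median log2 ratio lies further from equal CPM (-0.28 against -0.08). Both enter the chi-square. Departure from equal CPM past counting error was thus not confined to the 99. The SD of the log2 ratios themselves was 0.40 in the 99 rows and 0.40 in the 119. Across the 99 genes, which are not independent replicates, Pearson's r of log2 CPM between the total libraries was 0.88 and Spearman's rho was 0.80. In the 119 rows, which span higher levels on the whole, these were 0.93 for both measures. The limit of 30 reads in both total libraries bears on all of these values.

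**Figure D3:**
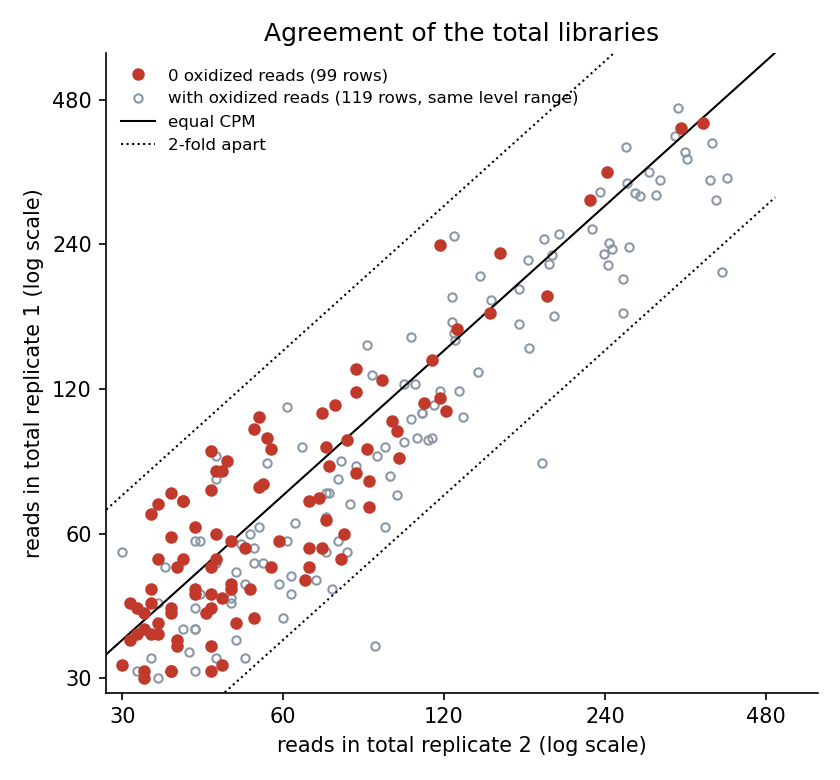
Reads per row in total replicate 1 against total replicate 2, both on log scales, for the 99 rows with 0 oxidized reads (filled) and the 119 rows within their range of levels with oxidized reads (open); the solid line is equal CPM and the dotted lines are 2-fold apart. All 99 filled points lie between the dotted lines, and 3 open points lie outside them.

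How many zeros low sampling alone would give depends on how many molecules the oxidized libraries held. Rows of other genes with 20 or more reads in 1 oxidized library and 0 in the other had a median of 122 reads in oxidized replicate 1 (202 rows, the middle 80% between 50 and 168) and 130.5 in oxidized replicate 2 (218 rows, between 37.7 and 195). Taken as the reads of 1 molecule, an assumption that was not tested, these medians give 90008 and 107908 assigned molecules in the oxidized libraries. Rows with 1 to 19 oxidized reads, of which the 300 held 31, lie far below these medians, which the estimate leaves out.

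At an unchanged share of assigned reads, a row would then be expected to give 0.375 to 4.80 molecules over both oxidized libraries among the 99, with a median of 0.658. Fewer than 1 molecule was expected for 75 of the 99 rows, 1 to 3 for 20 rows, and 3 or more for 4 rows. Summed over the 300 rows, the Poisson probabilities of 0 molecules came to 84.4 rows, and 99 were observed. This expectation supposes an unchanged share of all assigned reads, which is not the same as no loss of molecules. With miRNA reads taken out of the depth it was 16.9 rows. Both values take the estimate of reads per molecule as given.

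The next comparison is by level, at an unchanged share of all assigned reads. The observed numbers lay close to the expected ones at the low end, 30 to 59 reads, and above them from 60 to 479 reads. From 240 to 479 reads, with 4 empty rows, the expected percent (2.27%) lay outside the interval. From 60 to 119 reads it lay barely inside, at 36.79% against a lower bound of 36.65%. On which side it falls there depends on the estimate of reads per molecule. The intervals are set beside the expected values as a description and not as a test. With a mean of 30 to 59 reads in the total libraries, 54 of 91 rows had 0 oxidized reads (59.3%, exact 95% binomial interval 48.5 to 69.5%), where 53.3 were expected. From 60 to 119 reads it was 35 of 72 rows (48.6%, 36.7 to 60.7%), with 26.5 expected, and from 120 to 239 reads 6 of 30 (interval 7.71 to 38.6%), with 3.93 expected. From 240 to 479 reads 4 of 29 rows had 0 (13.8%, 3.89 to 31.7%), with 0.659 expected, and at 480 or more 0 of 78, with 0.0201 expected. The intervals treat rows as independent draws and cover counting error only. The nearness at the low end holds for this scaling alone: at an unchanged share of the reads other than miRNA, 14.3 zero rows were expected from 30 to 59 reads, 2.49 from 60 to 119, 0.0384 from 120 to 239 and 0.000168 from 240 to 479.

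The expectation can also be given for single rows, again at an unchanged share of all assigned reads. ENSGALG00000054063 was expected at 4.80 molecules and those ranked 2, 3 and 4 at 4.51, 3.48 and 3.13, with probabilities of 0 molecules of 0.00824, 0.0110, 0.0310 and 0.0439. ENSGALG00000043373, the highest antisense row, was expected at 1.92 molecules, with a probability of 0.147. These rows were picked for their 0 oxidized reads and then for their level or strand. The probabilities are therefore a description and test no row. At an unchanged share of the reads other than miRNA, the rows ranked 1 to 4 were expected at 17.1, 16.1, 12.5 and 11.2 molecules. Over the 104 rows with 3 or more expected molecules, 4 had 0 oxidized reads and 0.519 were expected. Counting a row with up to 19 oxidized reads as empty, a limit chosen after the data were seen, made it 16 of these 104 rows (15.4%). Among the 196 rows expected under 3 molecules, 95 had 0 oxidized reads and 83.9 were expected.

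**Figure D4:**
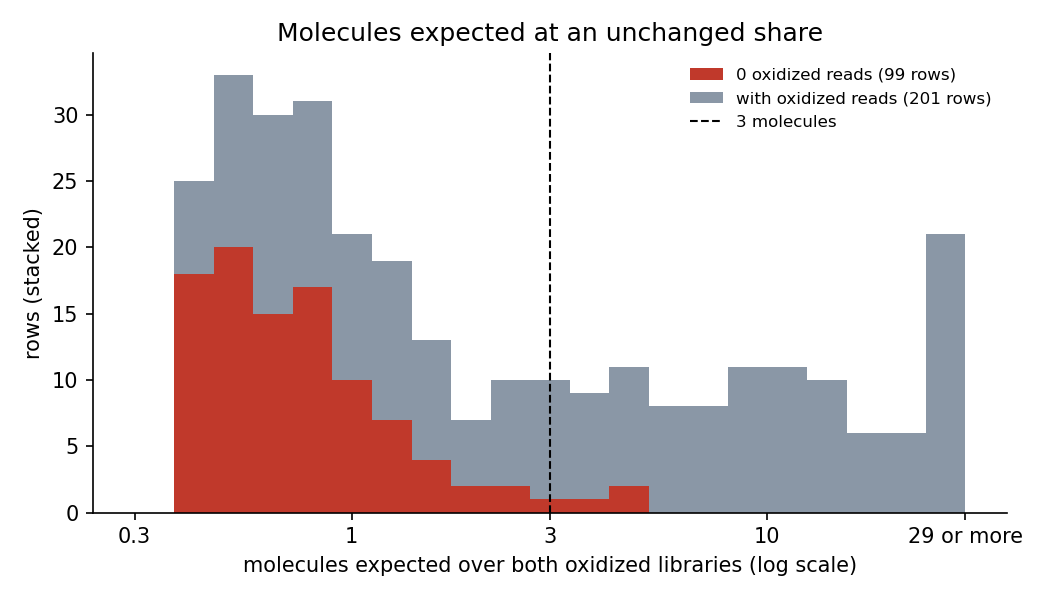
Number of gene rows by the molecules expected over both oxidized libraries at an unchanged share of assigned reads (log scale, values above 29 placed in the last bin), stacked for the 99 rows with 0 oxidized reads and the 201 rows with oxidized reads; the dashed line marks 3 molecules. Of the 99 rows, 95 lie below 3 molecules.

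The expectation changes with what is held unchanged. The miRNA reads take very different shares of the oxidized and total libraries, so the expectation was also computed without them. At an unchanged share of the reads other than miRNA, the 99 rows were expected at 1.33 to 17.1 molecules with a median of 2.38, and 16.9 zero rows were expected among the 300 in place of 84.4. If instead each read were its own molecule, 5.57e-21 zero rows would be expected. That last supposition goes against the 202 and 218 rows with 20 or more reads in 1 oxidized library and 0 in the other. Which share, if either, was unchanged is not given by the files.

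Other tables, counted in the same way, lay on both sides of the gene rows. Of 308 miRNA rows with 30 or more reads in both total libraries, 108 had 0 oxidized reads, where 45.2 were expected at an unchanged share of assigned reads. At a mean of 30 to 59 reads 54 of 91 gene rows (59.3%) were empty, against 33 of 36 miRNA rows (91.7%, exact 95% interval 77.5 to 98.2%). From 120 to 239 reads it was 6 of 30 gene rows, against 22 of 33 miRNA rows (66.7%, 48.2 to 82.0%). Of 78 transposable element (TE) families with as many reads, 5 were empty, where 11.5 were expected at an unchanged share of assigned reads. At an unchanged share of the reads other than miRNA, 1.52 empty TE families and 7.16 empty miRNA rows were expected. The reads per molecule used for these expectations came from rows of other genes. The observed numbers are counts of rows in 2 oxidized libraries, and the differences were not tested over samples.

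**Figure D5:**
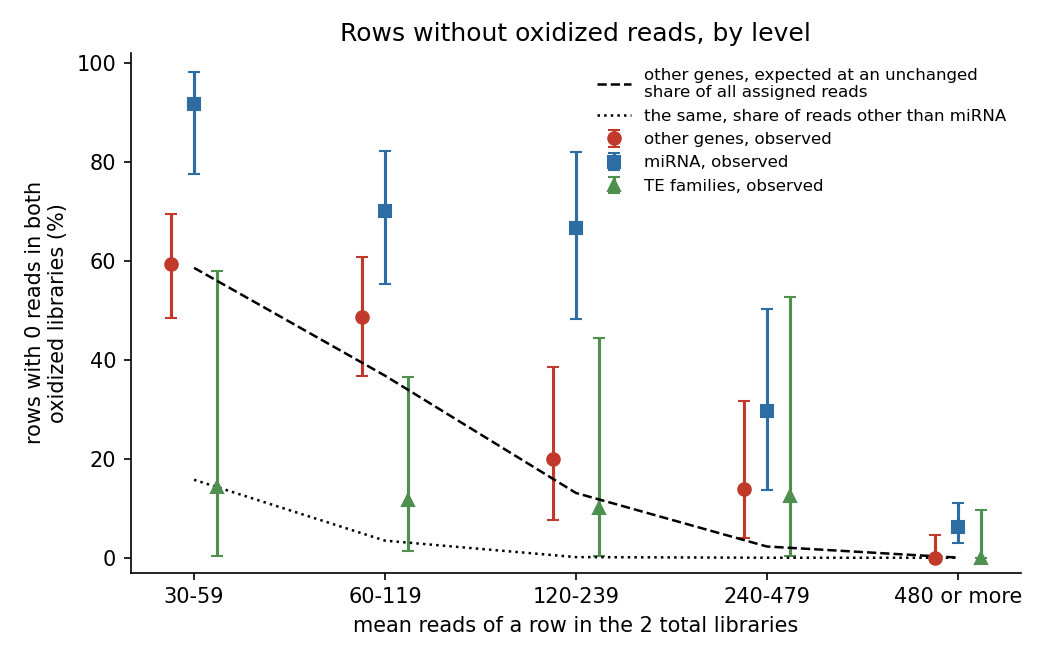
Percent of rows with 0 reads in both oxidized libraries, by the mean reads of a row in the total libraries, for other genes, miRNA and TE families (points, with exact 95% binomial intervals); the lines are the percent expected for other genes at an unchanged share of all assigned reads (dashed) and of reads other than miRNA (dotted). Gene rows run from 59.3% at 30 to 59 reads to 0% at 480 or more, near the dashed line and above the dotted one at the lowest level, with miRNA rows above them; the TE points below 480 reads rest on 7 to 17 families each.

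A row empty in one oxidized library was mostly empty in the other, which for the 99 rows is so by choice. Among rows with 30 or more reads in total replicate 1 and 0 in oxidized replicate 1, 124 of 156 (79.5%) had 0 reads in oxidized replicate 2 as well. Where oxidized replicate 1 had a read, 34 of 179 rows (19.0%) had 0 in oxidized replicate 2. Chosen on replicate 2, the counts were 122 of 157 (77.7%) and 34 of 181 (18.8%) for oxidized replicate 1. The rows empty in oxidized replicate 1 had a median of 55 reads in total replicate 1, against 307 in the rows with a read, and for replicate 2 the medians were 48 against 273. The 99 rows are among the 124 and the 122 by the rule that chose them. These counts are therefore a description and no separate check of the 99. The part of level in this contrast was not tested, and no label ties the same-numbered libraries. Among the 300 rows, 30 were empty in oxidized replicate 1 alone, 30 in oxidized replicate 2 alone, and 141 had reads in both.

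At an unchanged share of all assigned reads, the size of the fall could hardly be bounded in molecules. A bound in reads follows from the counts that chose the rows. The limit for a count of 0 was taken as 3 reads over both oxidized libraries, or 0.120 CPM. The total levels of the 99 rows were 15.8-fold to 203-fold above that limit, with a median of 27.8-fold. This limit treats reads as independent, which PCR copies are not, so nothing is read from these values. Read as molecules, 3 molecules over both libraries correspond to 15.2 CPM of all assigned reads, and only the 4 highest rows had a total level above that. For the other 95 rows this estimate gives no bound at that scaling. At an unchanged share of the reads other than miRNA more rows would pass. There the row ranked 33 was expected at 3.01 molecules and the row ranked 34 at 2.93. In edgeR's quasi-likelihood test all 99 rows passed the filter on low counts and all 99 were called lower, where 57.3% of the 1326 features tested were (adjusted p from 0.0059 to 0.0104 over the 99). With miRNA reads taken out of the depth all 99 were called too, as were 71.4% of all features. Since the same counts chose the rows, nothing is read from these calls. With the replicate number as a block 2 of the 99 were called lower (12.5% of all features). Without total replicate 1 or total replicate 2 there were 0 calls among the 99 (7.35% and 7.42% of all features; 0 of the 99 at an unadjusted p under 0.05, edgeR in each case).

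Some of the 99 rows may stand for the same reads. Of them, 3 had the same 4 unstranded counts as a row of the miRNA table, and in 2 of these the reverse counts were the same as well. In the row ranked 61 these were 0 reads in each oxidized library, against 66 and 34 in the total libraries, and in the row ranked 92 they were 0, against 38 and 33. The rows ranked 53 and 54 had the same counts as each other on both strands, 0 in each oxidized library, against 70 and 39 in the total libraries. Rows ranked 93 and 94 shared their unstranded counts, 31 and 37 in the total libraries, and differed in the reverse counts. At such low counts 2 rows can also match by coincidence, and overlap of the genes was not analysed here.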

How the data were processed

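The authors deposited raw read counts per feature, 1 value per row and library, in 6 tables for each of 4 libraries, unstranded and on the reverse strand, 48 count files in all. The counter was featureCounts and the build galGal6, per the submitters' processing notes. For the aligner, the annotation and reads with several matches, the choice is not given in the sources used here. Each value is thus 1 assignment of reads, and genes that overlap or share sequence can share or split them. Unstranded counts do not separate a gene from a partner on the other strand.

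The members and lists were chosen with earlier results of these data known. CPM is a count over the summed unstranded count of the 6 tables (10981001 to 17962725 reads per library, times 1000000). Expected zeros are sums of exp(-molecules). Intervals (exact binomial, 95%, scipy 1.17.1) and floors of 3 counts cover counting error only, since PCR copies are not independent molecules. The contrast was fitted over all tables with edgeR 4.0.16 (R 4.3.3), default filter, no TMM factors, Benjamini-Hochberg at 0.05, with DESeq2 1.42.0 as an alternative. The methods were tested on simulated data. For the expected zeros these data were drawn from the same model, with a set number of reads per molecule. They therefore cannot test whether that model holds for the real libraries.

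Samples were split before treatment according to the series text, but no label ties an oxidized library to a total library. The main contrast and the main expected zeros therefore did not pair libraries. Same-numbered libraries were taken as portions of 1 sample in the replicate block, and were matched in an alternative setting of the expected zeros. Deviations of same-numbered libraries from the group means had a correlation of 0.038 over 698 features. IDs printed are the row with the highest mean CPM and the highest row with over 50% reverse reads in both total libraries; others are given by rank.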

Additional observations from a re-analysis of the deposited data

How the results depend on the processing

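The number of gene rows found was 115 with up to 1 read allowed in each oxidized library, and 130 with up to 19. It was 96 when rows with the counts of another row were left out. These stayed within 1.5 times of 99, and the last 2 settings were chosen after the data were seen. Barring reverse reads too left 99, which 0 unstranded reads favours but does not fix. Leaving out 1 library gave 122 to 129 rows. A minimum of 20 reads in each total library gave 152 rows and a minimum of 60 gave 32. The 99 rows were chosen on the counts that are tested, so their calls as lower say nothing of stability. All 99 were called with TMM (57.5% of all features were), with DESeq2 (54.4%), with miRNA reads taken out of the depth (71.4%), with no filter (22.2%) and without oxidized replicate 1 (62.0%) or 2 (57.9%). The replicate block, which pairs same-numbered libraries, left 2 (12.5% of all features), and leaving out 1 library gave 0 to 99, the 0 being without total replicate 1 or 2 (7.35% and 7.42%), where the lone total library is given the spread of the oxidized libraries.

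Zero rows expected were 84.4, 79.2 and 88.8 with reads per molecule taken from rows of at least 20, 10 and 50 reads, and 84.1 with same-numbered libraries. They were 16.9 with miRNA reads taken out of the depth, 5.57e-21 with 1 read as 1 molecule, 4.61 for rows with a mean of 120 or more reads (added after the data were seen), where 10 were observed, and 105 and 111 without total replicate 1 and 2, where 122 and 124 were observed. The mean reverse share of 13.0% was 13.8% without the row with the most reads and 0 as a median over rows. Rows past 2-fold between the total libraries were 0, also with TMM and in rows of 60 or more reads, against 7 with miRNA left out and 19 past 1.5-fold. How many molecules the oxidized libraries held is an untested estimate, and what a 0 shows depends on it.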
